A study of Arabidopsis thaliana with 4 samples.

Results

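HAT2, LBD16 and LBD29 encode transcription factors of the plant auxin response, and this account follows their transcripts in Arabidopsis seedlings exposed to a synthetic strigolactone. The genes were chosen by name, as the probe sets assigned to exactly HAT2 (AT5G47370), LBD16 (AT2G42430) and LBD29 (AT3G58190), with the difference between GR24 and mock on these arrays already known. They are 3 of 13355 genes with a probe set of their own, and each had 1 probe set (248801_at for HAT2, 265856_at for LBD16 and 251565_at for LBD29). Their differences between GR24 and mock are therefore given as a description, without a test.

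HAT2 is a homeodomain-leucine zipper protein of class II, a class whose members act mostly as repressors, and its transcript is raised by auxin. LBD16 and LBD29 are LOB-domain proteins, which are specific to plants. Auxin raises their transcripts through the auxin response factors ARF7 and ARF19, and both proteins are known for starting lateral roots. Strigolactones are hormones that restrain shoot branching and shape the root system, in part together with auxin. No auxin was given in this experiment, so the induction by auxin for which the genes are grouped was not measured here.

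RNA came from whole seedlings of the Col strain, 14 days old, all of which carried the max3 mutation. MAX3 is a carotenoid cleavage dioxygenase needed for making strigolactones, so GR24-treated and mock seedlings alike lacked their own supply, and no seedlings with a working MAX3 gene are analysed here. Seedlings of 2 arrays had received 1 µM GR24, a synthetic strigolactone, for 90 min, and those of 2 arrays the solvent dimethyl sulfoxide (mock) for 90 min. Each treatment had a replicate 1 and a replicate 2, and the series description gives 2 independent experiments that each started from their own seedlings. Whole seedlings mix many cell types, so fewer cells of one type and less RNA per cell cannot be told apart.

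The values are RMA signals on the log2 scale, with array medians between 7.03 and 7.06, and the number of arrays limits their precision. Each probe set responds to its own probes, so the signal of one gene is not set against that of another. Of 10 shoot markers and 10 root markers, 1 each had a named probe set. RCA, a photosynthesis gene of green tissue, lay between 13.43 and 13.56 on the 4 arrays, and EXPA7, an expansin of root hair cells, between 4.79 and 5.58. The level of MAX3 itself is not analysed here.

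HAT2 was lower with GR24 in both replicates. Its signal was 10.54 in GR24 replicate 1 and 10.55 in GR24 replicate 2, against 11.25 in mock replicate 1 and 11.11 in mock replicate 2 (log2). Both GR24 arrays lay below both mock arrays, a pattern shared by 10.2% of all probe sets. The 2 GR24 arrays were nearly equal, and the groups were much farther apart than the arrays within either one. On the linear scale the signals were 1485 and 1494 with GR24, against 2431 and 2208 with mock.

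The difference in HAT2, GR24 minus mock, was -0.71 in replicate 1 and -0.56 in replicate 2 (log2). Its mean was -0.64 ± 0.10 (SD over 2 pairs), which left the signal with GR24 at 64.3% of that with mock. HAT2 averaged 10.54 ± 0.01 in GR24 seedlings and 11.18 ± 0.10 in mock seedlings (log2, SD, n = 2 each). In replicate 1, 0.488% of all probe sets had a more negative difference, and in replicate 2 it was 0.523%. These ranks belong to the contrast on which the gene was chosen and carry no further weight. HAT2 is a bright probe set, with 94.5% of probe sets dimmer.

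LBD16 moved in opposite directions in the replicates. Its signal was 6.31 in GR24 replicate 1 and 7.03 in GR24 replicate 2, against 6.69 in mock replicate 1 and 6.63 in mock replicate 2 (log2). The mock arrays lay close together and between the GR24 arrays, so the groups overlapped. GR24 minus mock was -0.39 in replicate 1 and 0.41 in replicate 2, and 47.8% of all probe sets likewise had differences of opposite sign.

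The mean difference of LBD16 was 0.01 ± 0.56 (SD over 2 pairs), a value far smaller than its spread. LBD16 averaged 6.67 ± 0.51 in GR24 seedlings and 6.66 ± 0.05 in mock seedlings (log2, SD, n = 2 each). In linear terms the signal with GR24 was 0.765 of mock in replicate 1 and 1.32 times mock in replicate 2. The mean near 0 thus joins 2 differences of about equal size and opposite sign, and these arrays give no common direction for the gene.

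LBD29 was slightly higher with GR24 in both replicates, by less than the arrays of a group differed from each other. Its signal was 4.51 in GR24 replicate 1 and 4.24 in GR24 replicate 2, against 4.43 in mock replicate 1 and 3.997 in mock replicate 2 (log2). The groups overlapped, since GR24 replicate 2 lay below mock replicate 1. GR24 minus mock came to 0.08 in replicate 1 and to 0.24 in replicate 2, and 28.7% of all probe sets were likewise higher with GR24 in both pairs.

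For LBD29 the mean difference was 0.16 ± 0.11 (SD over 2 pairs), and 0.085 with 16 added to the linear signals. It averaged 4.37 ± 0.19 in GR24 seedlings and 4.21 ± 0.31 in mock seedlings (log2, SD, n = 2 each). The probe set is dim, with only 19.1% of probe sets dimmer. Its linear signals were 22.8 and 18.8 with GR24, against 21.53 and 15.96 with mock. No detection calls were used, so whether this signal stood above background is not known.

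**Figure D1:**
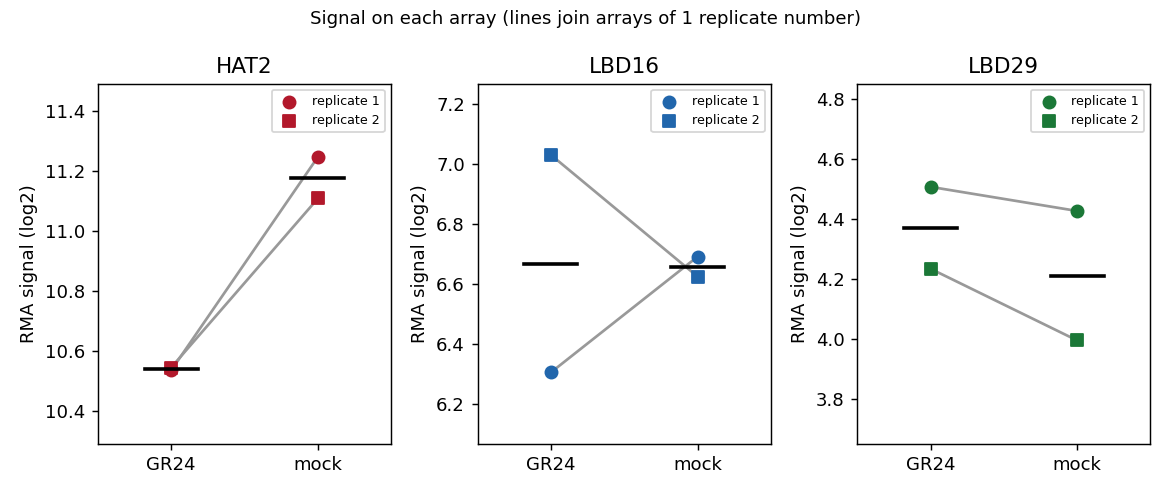
RMA signal (log2) of HAT2, LBD16 and LBD29 on each of the 4 arrays, with GR24 left of mock; circles are replicate 1, squares replicate 2, black bars group means, and lines join arrays of the same replicate number. HAT2 is lower with GR24 in both replicates (10.54 and 10.55 against 11.25 and 11.11), the lines of LBD16 cross, and those of LBD29 run side by side; each axis spans the same log2 range but starts at its own level.

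The signs of the differences thus varied among the genes, all grouped as auxin-induced, and the GR24 and mock arrays overlapped for LBD16 and LBD29. HAT2 was below 0 in both replicates, LBD29 above 0 in both, and LBD16 on either side of 0. How well the replicates agreed can be read from the gap between the within-replicate differences. It was 0.15 for HAT2 and 0.16 for LBD29 (log2), close to the median gap of 0.15 over all probe sets. For LBD16 it was 0.79, and 0.558% of probe sets had a larger gap. The gaps come from the differences already known when the genes were chosen, so this rank is a description and carries no further weight. Among the 5686 probe sets with mean signals from 4.72 to 7.05, where LBD16 lies, the median gap was 0.18 and the 90th percentile 0.45. Whether the response of LBD16 differed between the replicates could not be tested, because a model with such a term leaves 0 residual degrees of freedom.

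**Figure D2:**
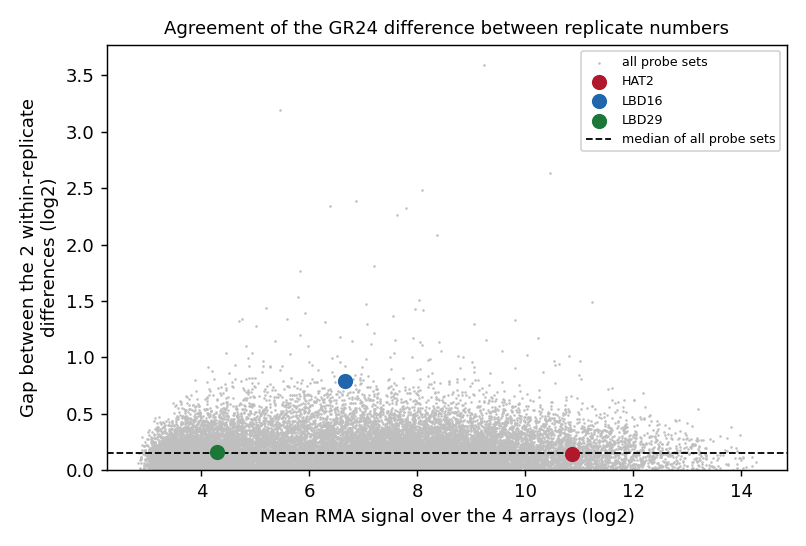
Gap between the within-replicate GR24 minus mock differences (log2, vertical axis) against mean RMA signal over the 4 arrays (log2, horizontal axis); each grey point is a probe set and the dashed line is the median of all probe sets. HAT2 (0.15) and LBD29 (0.16) sit near the median, HAT2 among bright and LBD29 among dim probe sets, and LBD16 (0.79) lies above most probe sets of similar signal.

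The difference between replicate numbers, with treatment held constant, is a contrast that played no part in choosing the genes. Each replicate number stands for 1 seedling preparation, so the p-values of this contrast measure the spread between arrays and not that between preparations. Across all probe sets, 21.8% differed between replicate 2 and replicate 1 (limma, adjusted p under 0.05). LBD29 was lower in replicate 2, with a mean signal of 4.12 in replicate 2 and 4.47 in replicate 1. The difference was -0.35 ± 0.11 (log2, moderated SE, n = 2 pairs, adjusted p = 0.0278 in limma), and it was negative under both treatments, at -0.27 with GR24 and -0.43 with mock. In size it exceeded the mean difference of 0.16 between GR24 and mock, a comparison that was not tested. The call was lost with a prior variance refitted by maximum likelihood (adjusted p = 0.0504 in limma's model, beside 16.7% of all probe sets called), with repeated quantile normalization (adjusted p = 0.0666 in limma) and with 16 added to the linear signals (adjusted p = 0.141 in limma). It was kept with median centring (adjusted p = 0.0327 in limma).

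HAT2 and LBD16 did not pass the same test. HAT2 differed by -0.06 ± 0.11 between replicate 2 and replicate 1 (log2, moderated SE, adjusted p = 0.754 in limma). For LBD16 the difference was 0.33 ± 0.14 (log2, moderated SE, adjusted p = 0.109 in limma). It came from the GR24 arrays, where replicate 2 minus replicate 1 was 0.73, against -0.07 in the mock arrays. The root hair gene EXPA7 was higher in replicate 2 than in replicate 1 by 0.67 ± 0.11 (log2, moderated SE, adjusted p = 0.000259 in limma) and the leaf gene RCA by 0.11 ± 0.11 (adjusted p = 0.549 in limma). Their part in the replicate differences of LBD16 and LBD29 was not tested.

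Other genes of the same families and pathway were looked up in 5 lists. The class II homeodomain-leucine zipper list held 10 genes and the LOB-domain list 42, and apart from HAT2, LBD16 and LBD29 neither had a member with a named probe set. Over all lists, 5 of the 89 other genes had a probe set of their own, matched by locus (GH3.5 is annotated as WES1 and SAUR10 as AT2G18010). These were GH3.3 and GH3.5, whose enzymes conjugate auxin to amino acids, the auxin signalling repressor gene IAA29, the small auxin-up RNA gene SAUR10, and PUCHI, an AP2/ERF factor of lateral root initiation. Too few genes had a named probe set for a statement on either family. Of the 22746 probe sets, 8730 were left unnamed, so whether the array holds other family members is not known here.

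In the unpaired limma fit, 0 of these 5 genes and 0 of all probe sets (0%) passed an adjusted p under 0.05, while 351 probe sets had an unadjusted p under 0.05. With the replicate number as a block, 1 of the 5 fell and 0 rose, beside 1.24% of all probe sets called, or 0.637% called as lower. That gene was SAUR10, with a signal of 3.79 and 4.13 with GR24, against 5.23 and 5.14 with mock (log2, replicates 1 and 2). The lists were chosen with earlier results of these data known, so a p-value of SAUR10 is not an independent test. The change in SAUR10 was -1.22 ± 0.12 (log2, moderated SE, n = 2 pairs, adjusted p = 5.31e-06 in limma with the block). With the likelihood prior, which called 0.303% of all probe sets, its adjusted p was 0.00765 in the same model. SAUR10 was dim with GR24, and adding 16 to the linear signals reduced the difference to -0.73 on the log2 scale. Both GR24 arrays of SAUR10 lay below both mock arrays, a pattern shared by 10.2% of all probe sets, HAT2 among them.

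The other listed genes did not pass either fit. GH3.3 had differences of -0.19 in replicate 1 and -0.26 in replicate 2 (log2, mean -0.22, adjusted p = 0.610 in limma with the block). IAA29 had -0.39 and -0.30 (mean -0.34, adjusted p = 0.206 in limma with the block), and its signal in replicate 2 minus that in replicate 1 was -1.02 ± 0.11 (moderated SE, with treatment held constant). GH3.5 had 0.05 and -0.04. PUCHI was the only gene measured of the 21 listed for the pathway from auxin to the LBD genes. It had -0.34 in replicate 1 and 0.17 in replicate 2. Opposite signs were also seen in LBD16, in GH3.5 and in 47.8% of all probe sets. PUCHI was among the dimmest 25% of probe sets, so its signs are not read as a likeness to LBD16. The median difference of the 4 measured early auxin response genes was -0.28 (log2), beside a median of 0.01 over all probe sets. The list was chosen with earlier results of these data known, so this median is a description of these genes only.

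**Figure D3:**
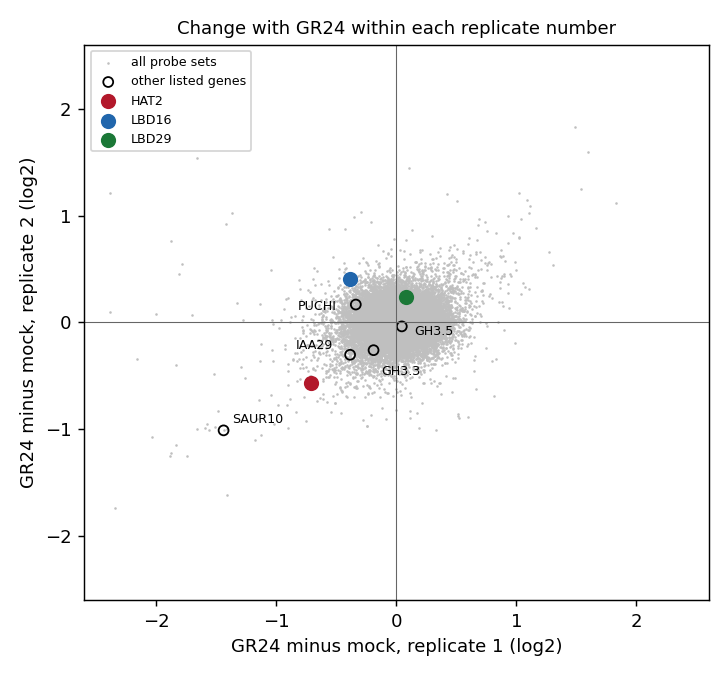
GR24 minus mock in replicate 1 (horizontal axis, log2) against replicate 2 (vertical axis, log2) for all probe sets (grey), HAT2, LBD16 and LBD29 (filled circles) and the other listed genes with a named probe set (open circles). HAT2 (-0.71 and -0.56) lies in the lower left between IAA29 and SAUR10, LBD29 close to the origin, and LBD16 and PUCHI in the upper left, where the replicates disagree.

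The genes most alike to each were found among 13510 other probe sets with 1 gene name, as those with the smallest root mean square distance between signals on the 4 arrays after each gene's own mean was subtracted. For HAT2 these were AT2G03850 (distance 0.05, log2), AT4G16880 (0.06) and AT5G47610 (0.06), with mean GR24 minus mock differences of -0.56, -0.52 and -0.57. Within 0.1 of HAT2 lay 7 of these probe sets. For LBD16 they were AT4G20000 (0.04), AT2G25890 (0.05) and AT3G56350 (0.05), and 12 probe sets lay within 0.1. AT4G20000 had differences of -0.42 in replicate 1 and 0.51 in replicate 2, and it was chosen for this likeness to LBD16. For LBD29 they were AT2G31090, AT1G68330 and AT5G51840, each at a distance of 0.01, and 1120 probe sets lay within 0.1. Each of these was lower in replicate 2 than in replicate 1 under both treatments, as LBD29 was, and they were chosen for this likeness. AT2G31090, for one, had 11.02 and 10.73 with GR24, against 10.91 and 10.51 with mock (log2, replicates 1 and 2). Of all probe sets, 21.8% differed between the replicates (limma, adjusted p under 0.05). The profiles were not scaled, so the counts depend on the size of a gene's variation as well as on its pattern.

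Of the 12 protein-coding neighbours within 2 places on either side of HAT2, LBD16 and LBD29 in the RefSeq gene order of TAIR10.1, 8 had a probe set of their own. Their mean differences between GR24 and mock lay between -0.12 and 0.16 (log2). Directly beside HAT2, AT5G47360 had 0.16 and AT5G47380 had -0.12.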

How the data were processed

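The deposited values are log2 signals from the authors' RMA processing, which is credited to the submitters' processing notes. A version or genome build is not given in the sources used here. RMA equalises distributions between arrays, and dim probe sets remain noisy after it. Of 22810 probe sets, 64 controls were left out and 22746 tested without a filter. Gene names came from the platform's annotation table, updated through RefSeq identifiers (13484 of 13513 probe sets with 1 gene matched), with 503 probe sets of several genes and 8730 not listed and left unnamed.

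Tests used limma 3.58.1 in R 4.3.3, two-sided, with p-values adjusted over all probe sets by the Benjamini-Hochberg method and a threshold of 0.05. The planned fit of GR24 against mock was unpaired, and a fit blocked on the replicate number was an alternative. The series description gives each replicate its own seedling preparation, and same-numbered arrays deviated together from their group means (correlation 0.712 across probe sets), so the numbers were taken to pair the arrays. With 1 residual degree of freedom the block fit leans on the prior variance, estimated by limma or by maximum likelihood. Where nothing separates the cultures of 1 preparation, p-values measure only the spread between these arrays. The genes and lists were chosen with earlier results of these data known. Genes named were the members, listed genes that passed or were extreme in their list, and the 3 most alike per member. The chromosomal neighbours were added after the values had been seen. Other settings were repeated quantile normalization, median centring, an offset of 16, leaving out the dimmest 25% of probe sets, and leaving out each array.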

Additional observations from a re-analysis of the deposited data

How the results depend on the processing

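For HAT2, GR24 minus mock was -0.65 to -0.63 (log2) under the block, both scalings and the offset, and -0.71 to -0.57 with single arrays left out. Leaving out a single array could not turn its sign, because both GR24 arrays lay below both mock arrays. HAT2 was chosen on this contrast, so its constant sign carries no further weight. LBD16 had no stable sign, at -0.0056 with median centring and from -0.35 to 0.37 with single arrays left out. LBD29 ranged from -0.056 to 0.38 with single arrays left out, where the fit mixes the difference between replicates into the change. The difference of LBD29 between replicates was -0.35 with the likelihood prior, -0.30 with repeated quantile normalization and -0.19 with the offset, none past the threshold. With median centring it was -0.35 and past the threshold (adjusted p = 0.0327 in limma). The cause was not tested. The count of probe sets called was 0 unpaired, 281 with the replicate block and 69 with the block and likelihood prior. For GR24 against mock, the scalings, the offset and the leaving out of probe sets or arrays were run without the block. Whether the calls of the block fit hold under those settings was not tested. Of the 5 listed genes, 1 was called with the replicate block under either prior (SAUR10, change -1.22) and 0 in the unpaired fits. Leaving out the dimmest probe sets removed SAUR10 and PUCHI and left 3 of the 5 tested. Signs turned for GH3.5 (-0.0125 with repeated quantile normalization, -0.0114 with centring, -0.073 to 0.081 with single arrays left out) and PUCHI (-0.27 to 0.097 with single arrays left out). IAA29 ranged from -0.88 to 0.19 with single arrays left out, where its difference of -1.02 between replicates is likewise mixed into the change. Within replicates 1 and 2 it was below 0 in both (-0.39 and -0.30). The block leaves the size of a change as it was in this balanced design. No detection calls were used, so the dim signals of LBD29, SAUR10 and PUCHI have no stated background.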
